A study of Rattus norvegicus with 32 samples.

Results

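The mitochondrial carrier family Slc25 was described in the gastrocnemius, the large calf muscle, of rats. Its members were taken by name, as every gene of the table whose symbol is Slc25a followed by a number: 36 genes of 12901. RNA came from male rats 20 weeks of age on a chow diet, either control rats or rats labelled as knockouts of UCP1, the proton carrier with which brown fat makes heat. The 4 groups were control rats at room temperature (control_RT, 7 libraries), control rats after 2 weeks at 4 °C (control_4C, 7), knockout rats at room temperature (KO_RT, 9) and knockout rats after 2 weeks at 4 °C (KO_4C, 9). All groups share the sex, age and diet, and they differ in genotype and temperature. The sources used here do not give the strain, how the knockout allele was made, or whether room-temperature and cold muscles came from the same animals. No check of the genotype labels by the level of Ucp1 was made, since that gene was not analysed here. Libraries of KO_RT are named by the number in their column (KO8, KO9 and so on) and the others by replicate.

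Slc25 proteins sit almost all in the inner membrane of the mitochondrion, which is otherwise tight to ions and metabolites, and each moves its own substrate across it, usually in exchange for another. In muscle the best known pair feeds ATP synthesis: the adenine nucleotide translocase brings ADP in and ATP out, and the phosphate carrier brings in phosphate. Other members carry acylcarnitines for fatty acid oxidation, amino acids, citric acid cycle acids, cofactors and iron. The uncoupling proteins belong to the same family under the Ucp name and are outside the naming rule used here.

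The libraries held 7275508 to 25846976 counts, all of them even numbers, and reads were counted at the 3′ end of transcripts, so that a count does not grow with transcript length. Levels are given as TMM-scaled CPM, counts divided by the effective size of the library. Markers of skeletal muscle summed to 121411 to 228044 CPM over the 32 libraries, and none of the 10 was at 0 in all libraries of a group. The first principal component of all genes tested held 21.7% of the variance and set control_RT apart from control_4C without overlap. The 4 libraries lowest on it were KO8 and KO10 of KO_RT and replicates 2 and 3 of control_RT. Results that rest on them are given with and without all 4 of these libraries. They were chosen by a score computed from all genes tested, the carriers among them. The next lowest library, replicate 6 of control_RT, scored -32.8, against -41.3 for the highest of the 4. P-values without these libraries are therefore descriptive only.

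One carrier made up most of the family's RNA. Slc25a4 (ENSRNOG00000010830), the adenine nucleotide translocase of heart and skeletal muscle, held 87.8 to 94.7% of all Slc25 counts of a library, with a median of 89.7%. The phosphate carrier Slc25a3 (ENSRNOG00000008289) came next, at group medians of 597 to 669 CPM against 10757 to 12641 CPM for Slc25a4. The acylcarnitine carrier Slc25a20, the oxoglutarate carrier Slc25a11 and Slc25a46 followed, with group medians between 68.8 and 155 CPM. Slc25a5, the translocase of many other tissues, was a minor form here: its median count per 1000 counts of Slc25a4 was 0.324 in control_RT and 0.728 in control_4C, and in knockout rats 0.651 at room temperature and 0.513 after cold. The remaining Slc25 genes summed with Slc25a3 and without Slc25a4 to 1072 to 1412 CPM per library. Slc25a2, Slc25a18, Slc25a40 and Slc25a51 stayed under the filter on low counts and were not tested: their group means were 0.0747 to 0.477 CPM, and they were listed at 0 counts in 7, 10, 9 and 3 of the 32 libraries.

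**Figure D1:**
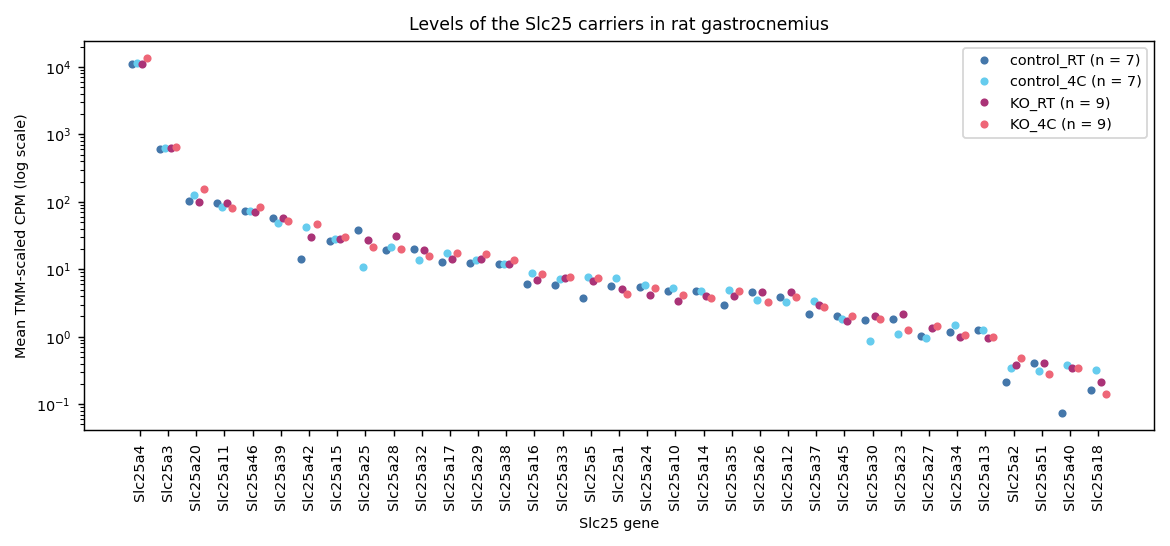
Mean level of 35 Slc25 genes in the 4 groups, in TMM-scaled CPM on a log axis, with genes ordered by their mean over all libraries. Slc25a4 stands above all others at group medians of 10757 to 12641 CPM, Slc25a3 is second, and the 4 genes at the right, with group means of at most 0.477 CPM, were not tested.

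Promoter sequences (RefSeq, build GRCr8) were matched for 30 of the 36 members, and the 250 bases before the annotated start were read for 4 short motifs on both strands. The 4 genes printed are those with the strongest response to cold or genotype among the carriers of ATP-Mg, coenzyme A, acylcarnitine and iron. They are written 5′ to 3′ on the gene's strand, with capitals for the cyclic AMP response element TGACGTCA and for the CCAAT box (CCAAT, or ATTGG on the other strand). These letters are matches in a window, not sites shown to be bound.
Slc25a25, chr3:36116582-36116831, minus strand: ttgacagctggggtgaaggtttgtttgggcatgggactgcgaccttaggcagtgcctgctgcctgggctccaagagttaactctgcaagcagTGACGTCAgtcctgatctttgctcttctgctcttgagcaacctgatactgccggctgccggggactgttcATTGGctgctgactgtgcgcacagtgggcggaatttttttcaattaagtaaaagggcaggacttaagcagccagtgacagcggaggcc
Slc25a42, chr16:19247724-19247973, plus strand: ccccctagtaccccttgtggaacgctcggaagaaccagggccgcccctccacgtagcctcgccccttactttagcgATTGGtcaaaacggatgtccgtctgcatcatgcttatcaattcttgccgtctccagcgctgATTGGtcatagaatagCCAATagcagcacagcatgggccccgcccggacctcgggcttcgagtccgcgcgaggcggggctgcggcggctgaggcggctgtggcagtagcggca
Slc25a20, chr8:118243323-118243572, plus strand: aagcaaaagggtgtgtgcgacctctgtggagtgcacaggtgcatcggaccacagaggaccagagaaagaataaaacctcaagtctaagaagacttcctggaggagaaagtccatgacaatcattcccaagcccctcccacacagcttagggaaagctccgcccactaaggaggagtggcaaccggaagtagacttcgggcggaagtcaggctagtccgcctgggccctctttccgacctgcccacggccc
Slc25a28, chr1:252491343-252491592, minus strand: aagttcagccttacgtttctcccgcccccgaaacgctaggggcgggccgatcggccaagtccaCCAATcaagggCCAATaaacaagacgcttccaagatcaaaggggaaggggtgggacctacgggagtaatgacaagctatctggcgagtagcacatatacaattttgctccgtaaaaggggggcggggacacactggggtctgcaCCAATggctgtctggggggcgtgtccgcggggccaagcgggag

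The palindrome TGACGTCA was present in 2 of the 30 member promoters, Slc25a25 at -158 to -151 and Slc25a33 at -84 to -77 from the start, which is 6.67% against 1.59% of all 33469 promoters of the table. CCAAT or its reverse was present in 17 of 30, or 56.7%, against 34% of all promoters. Slc25a42 and Slc25a28 held 3 CCAAT boxes each, Slc25a25 held 1, and the Slc25a20 window held none. The E-box CACGTG was found in 3 member promoters, Slc25a2, Slc25a33 and Slc25a51, against 5.59% of all promoters. The letters TCAAGGTCA, searched for ESRRA, were in none of the 30 and in 0.388% of all promoters. None of the motif matches in the members overlapped another. The set of all promoters was not limited to genes expressed in muscle.

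The first comparison asked which carriers differed after 2 weeks at 4 °C in control rats. Of the 32 members tested, 7 were called at an adjusted p under 0.05, 4 higher and 3 lower; over all 11594 genes tested 20.7% were called, 12.4% higher and 8.28% lower. The family's 21.9% thus lay near the share over all genes. Its median log2 fold change was 0.04, against 0.03 over all genes tested, and its median absolute log2 fold change 0.22 against 0.26. The higher genes were Slc25a42, Slc25a5, Slc25a35 and Slc25a17, and the lower ones Slc25a25, Slc25a32 and Slc25a23.

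The second comparison asked the same in knockout rats, with other libraries on both sides. There 6 of 32 members were called, 3 higher and 3 lower, against 13.8% of all genes (7.49% higher and 6.28% lower). The higher genes were Slc25a20, Slc25a17 and Slc25a46, and the lower ones Slc25a28, Slc25a23 and Slc25a11. The median log2 fold change was 0.07, against 0.01 over all genes tested. Slc25a17 and Slc25a23 were called in both genotypes, in the same direction. No member passed the test of the difference between the cold responses (the interaction). That test called 3 genes in all, or 0.0259% (0.00863% higher and 0.0173% lower). An unadjusted p under 0.05 was found there for 5 of 32 members, a share near that of all genes tested, 1499 of 11594. DESeq2 called 1 of these 5 members, Slc25a28, lower.

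**Figure D2:**
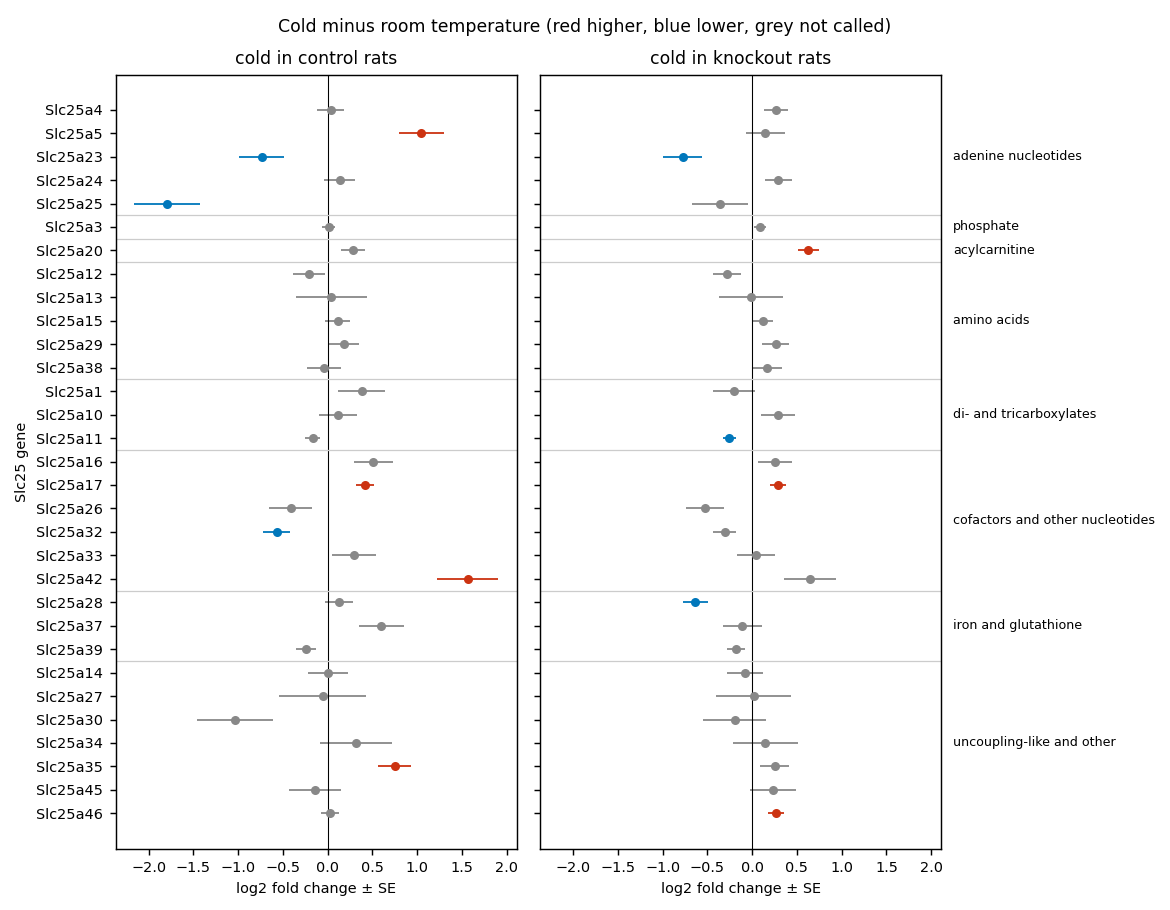
Log2 fold change of 31 tested Slc25 genes after cold, with its SE, in control rats (left) and in knockout rats (right), grouped by the substrate carried. Red points were called higher and blue points lower by edgeR at an adjusted p under 0.05. Slc25a25 lies lowest at left at -1.80 and Slc25a42 highest at 1.56.

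Other transcripts moved with cold in the same muscles, and their part in the carrier results was not tested. Of 13 markers of slow fibres, 12 were higher in each genotype; they summed to 7115 to 13439 CPM in control_RT and 13616 to 23111 CPM in control_4C, and in knockout rats to 6907 to 16279 CPM at room temperature and 11451 to 23279 CPM after cold. Of 10 fast-fibre markers, 5 were lower in control and 4 in knockout rats. The 10 skeletal muscle markers, which share genes with that list, also had 5 lower in control and 4 in knockout rats. Their median sums went from 191527 to 148120 CPM in control and from 174161 to 150291 CPM in knockout rats. Of 7 smooth muscle and pericyte markers, 3 were higher in control and 0 in knockout rats. Of 7 fibroblast markers, 2 were higher in control rats, and 1 was higher and 1 lower in knockout rats. Of 11 macrophage and leukocyte markers, 6 were higher in each genotype. Endothelial markers were higher for 1 of 8 tested genes in control and 2 of 8 in knockout rats. Brown adipocyte markers were lower for 1 of 3 in control rats, and intestinal epithelium markers higher for 1 of 7, with 0 calls of either in knockout rats. The intestinal markers summed to 958 and 799 CPM in replicates 3 and 6 of control_4C and 774 in replicate 4 of control_RT, against group medians of 246 to 374. Of 9 adipocyte markers, 4 were higher in control rats and 1 in knockout rats, and they summed to 153 to 197 CPM in control_RT and 248 to 409.8 CPM in control_4C. In knockout rats their sums were 139 to 621 CPM at room temperature, with KO8 the highest, and 269 to 439 CPM after cold. The 12 genes of mitochondrial DNA in the table held 11.03% ± 0.558 of counts in control_RT and 8.56% ± 1.04 in control_4C (SD, n = 7 each), and 10.98% ± 1.185 in KO_RT and 9.75% ± 1.28 in KO_4C (SD, n = 9 each). In whole muscle, fewer cells of a type and less RNA per cell cannot be told apart.

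Carriers of adenine nucleotides went in different directions. In control rats 2 of the 3 calcium-regulated ATP-Mg/phosphate carriers tested, Slc25a25 and Slc25a23, fell, the minor translocase Slc25a5 rose, and the major translocase Slc25a4 was not called. Slc25a4 ran from 8892 through a median of 10757 to 13839.6 CPM in control_RT and from 9395 through 11532 to 14555 in control_4C. In knockout rats it ran from 9117 through 11052 to 14527 CPM at room temperature and from 9234 through 12641 to 24025 after cold, where replicate 7 lay far above the other 8 libraries (9234 to 15649). Replicate 7 was also the highest library for Slc25a4 in control_RT and in control_4C, and KO17 was in KO_RT. What lies behind this was not tested. The groups overlapped throughout. Its log2 fold change after cold was 0.03 ± 0.15 (SE; adjusted p = 0.900) in control and 0.27 ± 0.13 (adjusted p = 0.183) in knockout rats, and -0.02 and 0.22 between genotypes at room temperature and after cold (adjusted p = 0.970 and 0.519).

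Slc25a25 (ENSRNOG00000014338) imports ATP-Mg in exchange for phosphate and so sets the adenine nucleotide pool of the matrix. It ran from 11.2 through a median of 33.0 to 69.8 CPM in control_RT and from 8.24 through 10.5 to 15.1 CPM in control_4C. At room temperature replicates 1, 2 and 3 were high, at 57.8, 58.4 and 69.8 CPM, while replicates 4 and 5 lay within the range of the cold group; all 7 cold libraries were below the room-temperature mean. The fold change was -1.80 ± 0.37 on the log2 scale (adjusted p = 0.000943), and -1.33 (adjusted p = 0.0178) without the 4 libraries low on the first component. In knockout rats Slc25a25 ran from 14.6 through 25.9 to 41.0 CPM in KO_RT and from 10.5 through 16.95 to 49.0 CPM in KO_4C. Most cold libraries were lower, but replicates 1 and 3 of KO_4C, at 49.0 and 37.0 CPM, were not, and the log2 fold change of -0.36 ± 0.31 was not called (adjusted p = 0.501). The difference between the cold responses was 1.44 ± 0.48 (adjusted p = 0.18), so a difference between genotypes was not shown. Its promoter is the one printed with the capitals TGACGTCA.

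Slc25a23 (ENSRNOG00000047781), a second ATP-Mg/phosphate carrier, was a low transcript that was lower after cold in both genotypes. It ran from 0.985 through a median of 1.94 to 2.75 CPM in control_RT and from 0.643 through 1.177 to 1.69 CPM in control_4C. It ran from 1.75 through 2.26 to 2.58 CPM in KO_RT and from 0.848 through 1.25 to 1.80 CPM in KO_4C. In both genotypes every cold library lay below the room-temperature mean, and the groups overlapped at their edges. The log2 fold change was -0.74 ± 0.25 (adjusted p = 0.0322) in control and -0.78 ± 0.22 (adjusted p = 0.0137) in knockout rats. The call in control rats was lost without replicate 2, 5 or 6 of control_RT or replicate 3, 4 or 7 of control_4C (-0.70 to -0.62, adjusted p up to 0.0890), without the 4 libraries low on the first component (-0.73, adjusted p = 0.0743), and in a fit on the compared groups only (adjusted p = 0.0945). The third carrier of this kind, Slc25a24, had group medians of 4.06 to 5.89 CPM and was not called in any comparison.

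Slc25a5 (ENSRNOG00000039980) ran from 2.32 through a median of 3.60 to 5.37 CPM in control_RT and from 4.67 through 8.24 to 10.01 CPM in control_4C. All 7 cold libraries were above the room-temperature mean, and the ranges met only at their ends. Slc25a5 rose by 1.04 ± 0.25 on the log2 scale (adjusted p = 0.00294). In knockout rats it ran from 2.23 through 6.14 to 10.8 CPM in KO_RT and from 4.66 through 7.18 to 10.4 CPM in KO_4C, with KO10 and KO8 lowest at room temperature; the log2 fold change of 0.15 ± 0.22 was not called (adjusted p = 0.702). The difference between the cold responses was -0.89 ± 0.33 (adjusted p = 0.224). Counts of Slc25a5 are uncertain, since near copies of the gene can share its reads.

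The 10 tested partners in ADP and phosphate handling held members in both directions. In control rats 3 were lower and 2 higher, with a list median of -0.12 on the log2 scale. The outer-membrane channels Vdac3 and Vdac2 fell by 0.41 ± 0.07 (adjusted p = 0.000229) and 0.30 ± 0.07 (adjusted p = 0.00311), and Ppif, the cyclophilin of the permeability transition pore, rose by 0.67 ± 0.19 (adjusted p = 0.0109). In knockout rats 1 was lower and 1 higher, and the list median was 0.06. Ckm, the muscle creatine kinase, fell by 0.46 ± 0.08 (adjusted p = 7.83e-05), and Atp5if1, an inhibitor of ATP synthase, rose by 0.48 ± 0.09 (adjusted p = 0.000179). Both were also called in control rats, in the same direction: Ckm at -0.28 ± 0.09 (adjusted p = 0.0243) and Atp5if1 at 0.30 ± 0.10 (adjusted p = 0.0309). Those 2 calls were lost without the 4 libraries low on the first component (adjusted p = 0.0676 and 0.0941).

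The phosphate carrier Slc25a3, whose phosphate is joined to ADP by ATP synthase, showed no called difference in any comparison. It ran from 546 through a median of 627 to 642 CPM in control_RT and from 536 through 597 to 712 CPM in control_4C. It ran from 479 through 635 to 674 CPM in KO_RT and from 597 through 669 to 729.8 CPM in KO_4C. All 4 groups overlapped, and the lowest library of all was KO8 of KO_RT. The log2 fold change after cold was 0.01 ± 0.08 (adjusted p = 0.941) in control and 0.08 ± 0.07 (adjusted p = 0.446) in knockout rats.

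The acylcarnitine carrier Slc25a20 (ENSRNOG00000020288), which exchanges long-chain acylcarnitines for free carnitine, rose after cold in knockout rats. It ran from 86.9 through a median of 95.2 to 125 CPM in KO_RT and from 106 through 155 to 214 CPM in KO_4C. All 9 cold libraries lay above the room-temperature mean, with overlap between 106 and 125 CPM. Slc25a20 rose by 0.63 ± 0.12 on the log2 scale (adjusted p = 0.000270), and the call held in all 40 alternatives, at 0.55 to 0.68 with an adjusted p of at most 0.00252. In control rats it ran from 93.9 through 101.5 to 130.1 CPM at room temperature and from 104 through 125 to 171 CPM after cold. Of the 7 cold libraries 6 were above the room-temperature mean, and the log2 fold change of 0.29 ± 0.13 was not called (adjusted p = 0.125). Neither the difference between the 2 responses (0.34 ± 0.18, adjusted p = 0.419) nor that between genotypes after cold (0.29 ± 0.13, adjusted p = 0.242) passed the test. Its promoter, printed with no capitals, held none of the motifs searched.

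The carnitine shuttle around Slc25a20 held 8 tested genes, of which 3 were higher and 0 lower in each genotype. The list medians were 0.25 on the log2 scale in control and 0.30 in knockout rats, against 0.03 and 0.01 over all genes tested. Acsl1, which activates fatty acids to acyl-CoA, rose by 0.59 ± 0.10 (adjusted p = 0.000129) in control and 0.58 ± 0.09 (adjusted p = 2.03e-05) in knockout rats. Cpt2, the enzyme that turns imported acylcarnitine back into acyl-CoA, rose by 0.33 ± 0.10 (adjusted p = 0.0172) and 0.60 ± 0.09 (adjusted p = 1e-05); the first of these calls was lost without replicate 7 of control_4C (adjusted p = 0.0572). The third gene was Slc22a5, the carnitine importer of the cell membrane, in control rats (0.94 ± 0.28, adjusted p = 0.0161), and Cpt1b, the muscle form of the outer-membrane acylcarnitine synthase, in knockout rats (0.56 ± 0.12, adjusted p = 0.00106).

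Of the 5 amino acid carriers tested, 0 were called in any of the 5 comparisons. Their log2 fold changes after cold lay between -0.21 and 0.18 in control rats and between -0.28 and 0.26 in knockout rats. Slc25a12 (ENSRNOG00000022922), the aspartate-glutamate carrier that is the main form of muscle and brain and works in the malate-aspartate shuttle, ran from 3.09 through a median of 3.68 to 5.58 CPM in control_RT and from 2.55 through 3.10 to 4.35 CPM in control_4C. It ran from 3.23 through 4.88 to 5.93 CPM in KO_RT and from 2.34 through 3.71 to 5.38 CPM in KO_4C. Cold medians were lower in both genotypes with wide overlap, and the log2 fold changes were -0.21 ± 0.18 (adjusted p = 0.452) and -0.28 ± 0.16 (adjusted p = 0.261). Slc25a13 (ENSRNOG00000009957), the related form best known in liver, had group medians of 0.759 to 1.17 CPM and log2 fold changes of 0.04 ± 0.40 and -0.01 ± 0.35. At its level the SE was the widest among the carriers of this kind.

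The ornithine carrier Slc25a15 had group medians of 25.9 to 29.1 CPM, the basic amino acid carrier Slc25a29 of 12.96 to 16.3 CPM, and the glycine carrier Slc25a38, which serves haem synthesis, of 11.7 to 13.7 CPM. Around them, 10 tested genes of branched-chain, proline, glycine and ornithine metabolism had 3 higher and 1 lower in control rats. Oat, which breaks down ornithine, rose by 0.97 ± 0.16 (adjusted p = 6.3e-05), Dbt, a subunit of the branched-chain ketoacid dehydrogenase, rose by 0.82 ± 0.16 (adjusted p = 0.000507), and Bckdk, the kinase that inhibits that enzyme, fell by 0.53 ± 0.09 (adjusted p = 0.000150). In knockout rats Bckdk fell by 0.38 ± 0.08 (adjusted p = 0.00122), and 1 gene of the list was higher, Oat, at 0.40 ± 0.14 (adjusted p = 0.0473). This call of Oat was lost without any 1 of 20 libraries (adjusted p up to 0.115). Of 10 tested genes of the aspartate, glutamate and malate shuttle, 1 was higher and 2 lower in control rats, and 1 each way in knockout rats. Cytosolic Mdh1 rose by 0.39 ± 0.09 (adjusted p = 0.00206) and 0.44 ± 0.08 (adjusted p = 0.000148), and Gpd1, of the glycerol phosphate shuttle, fell by 0.84 ± 0.10 (adjusted p = 1.64e-06) and 0.35 ± 0.09 (adjusted p = 0.00615), in control and knockout rats.

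Among carriers of di- and tricarboxylates, 1 of 3 was called, in knockout rats. Slc25a11 (ENSRNOG00000003815), which exchanges oxoglutarate for malate in the malate-aspartate shuttle, ran from 79.2 through a median of 97.9 to 109 CPM in KO_RT and from 74.4 through 80.2 to 91.8 CPM in KO_4C. All 9 cold libraries lay below the room-temperature mean, and the ranges overlapped between 79.2 and 91.8 CPM. The cold difference of Slc25a11 was -0.25 ± 0.07 on the log2 scale (adjusted p = 0.0177). In control rats it ran from 82.8 through 93.4 to 113 CPM and from 69.4 through 84.7 to 99.7 CPM, a log2 fold change of -0.16 ± 0.08 that was not called (adjusted p = 0.163). The citrate carrier Slc25a1 and the dicarboxylate carrier Slc25a10 had group medians of 3.54 to 5.59 CPM and no call. Of 8 tested genes of citrate, pyruvate and ketoacid use, 3 were higher and 0 lower in control rats, and 2 higher and 1 lower in knockout rats. Mpc2, a subunit of the pyruvate carrier outside the Slc25 family, rose by 1.56 ± 0.30 (adjusted p = 0.000517) in control rats, and Idh2, an isocitrate dehydrogenase of the matrix, rose by 0.43 ± 0.10 (adjusted p = 0.00207) and 0.33 ± 0.09 (adjusted p = 0.00806) in control and knockout rats.

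Of the 7 tested carriers of cofactors and other nucleotides, 2 rose and 1 fell in control rats, and 1 rose in knockout rats. Slc25a42 (ENSRNOG00000020345), which imports coenzyme A, had the widest separation: it ran from 3.17 through a median of 12.9 to 24.0 CPM in control_RT and from 30.8 through 40.6 to 52.2 CPM in control_4C. Every cold library lay above every room-temperature library. Slc25a42 rose by 1.56 ± 0.34 on the log2 scale (adjusted p = 0.00163), and 1.28 (adjusted p = 2.37e-06) without the 4 libraries low on the first component. In KO_RT it ran from 5.20 through 35.8 to 42.2 CPM, with KO10 at 5.20, KO8 at 8.60 and the other 7 libraries at 32.5 to 42.2. In KO_4C it ran from 39.96 through 47.1 to 59.4 CPM, and all 9 libraries were above the room-temperature mean. The log2 fold change in knockout rats was 0.64 ± 0.29 and was not called (adjusted p = 0.149). The interaction was -0.92 ± 0.45 (adjusted p = 0.381).

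Slc25a17 (ENSRNOG00000018920), a peroxisomal member that carries coenzyme A, FAD and NAD, rose after cold in both genotypes. It ran from 10.5 through a median of 12.4 to 15.1 CPM in control_RT and from 14.5 through 17.5 to 20.6 CPM in control_4C. It ran from 12.5 through 14.4 to 16.7 CPM in KO_RT and from 14.8 through 16.9 to 19.6 CPM in KO_4C. Every cold library lay above the mean of its room-temperature group, with a small overlap of the ranges. The log2 fold changes were 0.42 ± 0.10 (adjusted p = 0.00294) and 0.29 ± 0.09 (adjusted p = 0.0266). The call in knockout rats was lost without KO9, KO10 or KO16 of KO_RT or replicate 6 of KO_4C (0.25 to 0.26, adjusted p up to 0.0638), and without the 4 libraries low on the first component (0.24, adjusted p = 0.0833).

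Slc25a32 (ENSRNOG00000004403), the folate and FAD carrier, ran from 17.8 through a median of 19.4 to 25.1 CPM in control_RT and from 9.03 through 14.6 to 16.9 CPM in control_4C. The groups did not overlap, and the log2 fold change was -0.57 ± 0.15 (adjusted p = 0.00482). In knockout rats it ran from 15.4 through 18.4 to 31.8 CPM and from 11.6 through 15.5 to 18.6 CPM, with KO8 the highest; all 9 cold libraries were below the room-temperature mean, and -0.30 ± 0.13 was not called (adjusted p = 0.114). The carriers of S-adenosylmethionine (Slc25a26) and pyrimidine nucleotides (Slc25a33) and Slc25a16 were not called; Slc25a16 was higher in control rats without replicate 1 of control_RT or replicate 5 of control_4C (adjusted p = 0.0257 and 0.0434). Slc25a26 was below the room-temperature mean in all 7 and all 9 cold libraries, at log2 fold changes of -0.41 ± 0.24 (adjusted p = 0.220) and -0.53 ± 0.21 (adjusted p = 0.0886); DESeq2 called it lower in knockout rats (-0.55, adjusted p = 0.0484).

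Of the 3 tested carriers of iron and glutathione, Slc25a28 was called. Slc25a28 (ENSRNOG00000016751), mitoferrin 2, brings iron to the matrix in most tissues. It ran from 18.6 through a median of 31.5 to 43.1 CPM in KO_RT, with KO8 at 18.6, KO10 at 18.9 and the other 7 libraries at 30.2 to 43.1, and from 15.5 through 19.7 to 23.7 CPM in KO_4C. All 9 cold libraries were below the room-temperature mean, and KO8 and KO10 were the only libraries of KO_RT within the range of KO_4C. Slc25a28 differed by -0.63 ± 0.14 as log2 fold change (adjusted p = 0.00167), and by -0.78 (adjusted p = 4.22e-06) without the 4 libraries low on the first component. In control rats it ran from 13.3 through 19.0 to 28.1 CPM and from 16.5 through 21.2 to 25.6 CPM, and 0.13 ± 0.16 was not called (adjusted p = 0.614). Mitoferrin 1, Slc25a37, the form of red cell precursors, had group medians of 1.91 to 3.405 CPM and was not called (0.60 ± 0.25, adjusted p = 0.0856, in control rats), except without replicate 2 of control_RT or replicate 3 of control_4C (adjusted p = 0.0380 and 0.0494). Slc25a39, which carries glutathione, had group medians of 46.9 to 55.0 CPM and no call.

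Among 12 tested genes that use iron, cofactors or glutathione, 2 were lower and 0 higher in control rats, and 3 were higher and 1 lower in knockout rats. In knockout rats the scaffold of iron-sulphur cluster assembly Iscu rose by 0.40 ± 0.10 (adjusted p = 0.00713), Coasy, which completes coenzyme A synthesis, by 0.49 ± 0.11 (adjusted p = 0.00233), and the mitochondrial NAD kinase Nadk2 by 0.41 ± 0.09 (adjusted p = 0.00129). Erythroid markers were higher for 5 of 7 tested genes in control rats and 2 of 7 in knockout rats. In control rats they summed to 229 to 761 CPM at room temperature. After cold, replicate 2 of control_4C stood at 3503 CPM, against 383 to 738 in the other libraries of that group. In knockout rats the sums were 227 to 782 CPM at room temperature and 517 to 1249 CPM after cold.

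Of the 7 tested members grouped as uncoupling-like and other, 1 was higher in each genotype. Slc25a35 (ENSRNOG00000004668), whose substrate is not settled, ran from 2.17 through a median of 2.89 to 3.74 CPM in control_RT and from 3.39 through 5.25 to 6.06 CPM in control_4C. All 7 cold libraries were above the room-temperature mean, with overlap between 3.39 and 3.74 CPM, and the log2 fold change was 0.75 ± 0.19 (adjusted p = 0.00395). In knockout rats it ran from 3.01 through 3.70 to 5.20 CPM and from 2.63 through 5.10 to 5.92 CPM, and 0.25 ± 0.16 was not called (adjusted p = 0.330). Slc25a46 (ENSRNOG00000017091), an outer-membrane protein of mitochondrial shape, ran from 60.2 through 68.8 to 88.9 CPM in KO_RT and from 69.6 through 84.8 to 113 CPM in KO_4C. The groups overlapped widely, and the log2 fold change was 0.26 ± 0.09 (adjusted p = 0.0364), against 0.02 ± 0.10 (adjusted p = 0.896) in control rats.

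The call of Slc25a46 was the least stable of those after cold: it was lost without any 1 of 17 libraries, at 0.19 to 0.26 with an adjusted p up to 0.136. These were replicate 1 of control_RT, all libraries of KO_RT except KO8 and KO17, replicates 1, 4, 5 and 6 of control_4C, and replicates 1, 6, 7, 8 and 9 of KO_4C. It was also lost with RLE factors (adjusted p = 0.0558) and in a fit on the compared groups only (adjusted p = 0.0998). The uncoupling relatives Slc25a14, Slc25a27 and Slc25a30 had group medians of 0.847 to 4.82 CPM and no call, with Slc25a30 at -1.04 ± 0.42 in control rats (adjusted p = 0.0765) and below the room-temperature mean in all 7 cold libraries; a fit on the compared groups only called it lower (-1.05, adjusted p = 0.0250). Slc25a34 and Slc25a45 had group medians of 0.910 to 1.97 CPM and no call. Ucp2, an uncoupling protein outside the naming rule, rose in both genotypes, by 1.44 ± 0.26 (adjusted p = 0.000226) and 1.40 ± 0.23 (adjusted p = 4.98e-05), and was the 1 gene called of 4 in its list. Of 7 tested genes of mitochondrial content, 1 was lower in control rats (Ndufa9, -0.34 ± 0.08, adjusted p = 0.00328), and 1 was higher and 1 lower in knockout rats.

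**Figure D3:**
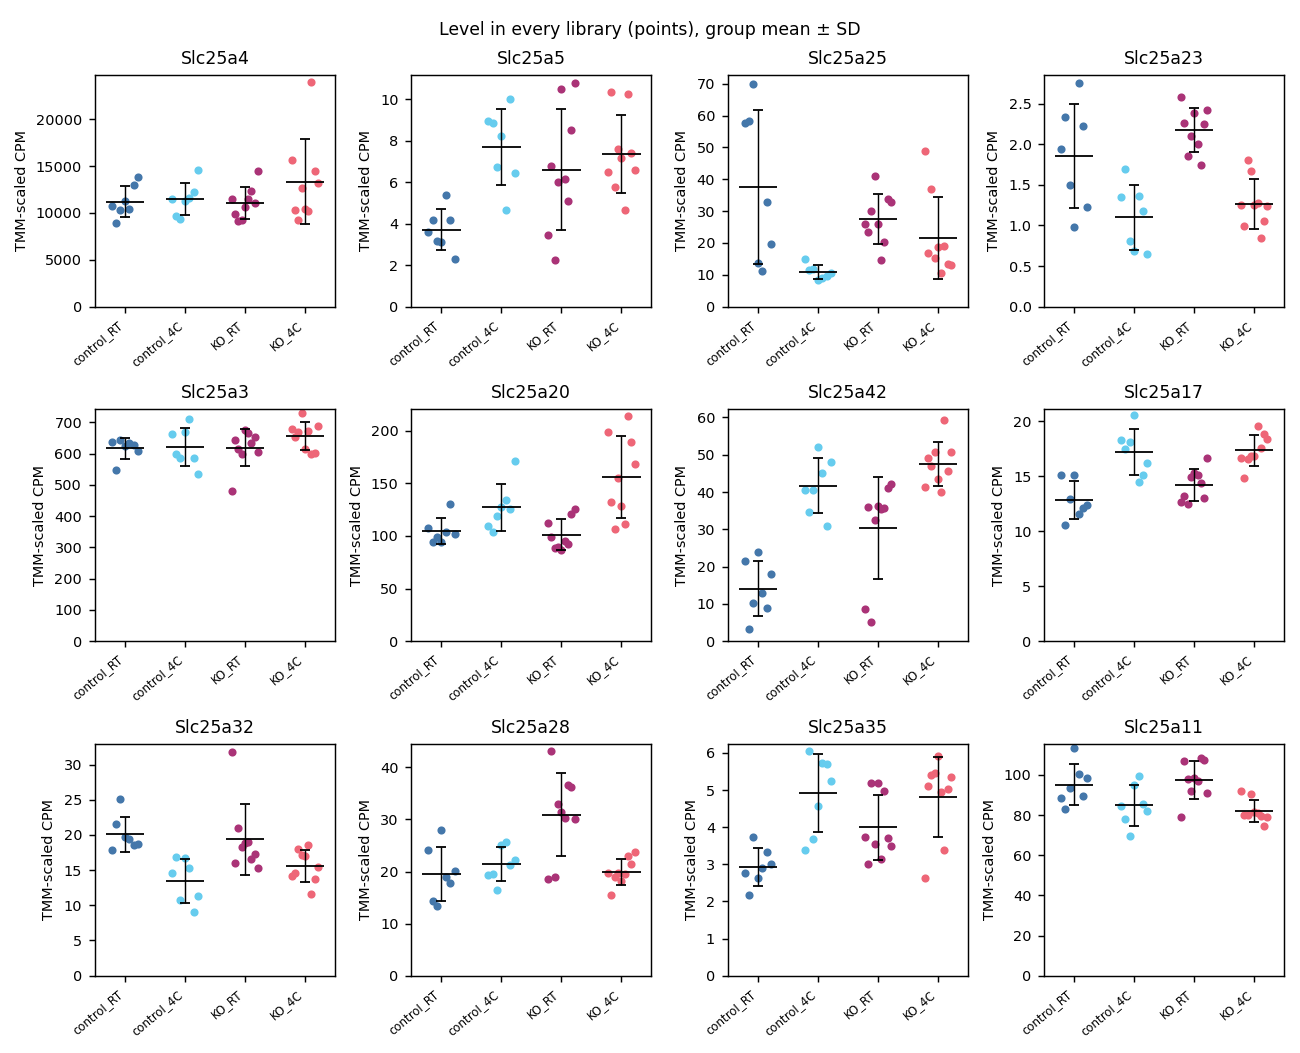
Level of 12 Slc25 genes in each of the 32 libraries (points) in TMM-scaled CPM, with the group mean and SD (bars). Slc25a42 and Slc25a32 of control rats do not overlap between temperatures, and Slc25a28 and Slc25a42 of KO_RT each show 2 libraries, KO8 and KO10, apart from the other 7.

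Between genotypes at room temperature, 2 of 32 members were called, both higher in knockout rats, against 2.61% of all genes (2.35% higher and 0.259% lower). Slc25a28 had the smaller p. It ran from 13.3 through a median of 19.0 to 28.1 CPM in control_RT and from 18.6 through 31.5 to 43.1 CPM in KO_RT, where 7 of 9 libraries were above every control library. The log2 fold change was 0.66 ± 0.15 (adjusted p = 0.0147); it was lost without replicate 3 of control_RT (adjusted p = 0.0511) and in a fit on the compared groups only (adjusted p = 0.117), and it was 0.64 (adjusted p = 0.00104) without the 4 libraries low on the first component. Slc25a5 ran from 2.32 through 3.60 to 5.37 CPM in control_RT and from 2.23 through 6.14 to 10.8 CPM in KO_RT, with 7 of 9 knockout libraries above the control mean. Its log2 fold change was 0.84 ± 0.24 (adjusted p = 0.0485). This call was lost without any 1 of 26 libraries (0.70 to 0.86, adjusted p up to 0.122), and it was kept without replicate 5 of control_RT, KO8 or KO10 of KO_RT, or replicate 2, 6 or 7 of KO_4C. The call was also lost with RLE factors (adjusted p = 0.0509), without the 20 most abundant genes in the scaling (adjusted p = 0.0501), with no filter (adjusted p = 0.0514) and in a fit on the compared groups only (adjusted p = 0.172). Without the 4 libraries low on the first component it was 1.022 (adjusted p = 0.00433).

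Slc25a42 was close to the threshold at room temperature, with a log2 fold change of 1.11 ± 0.33 (adjusted p = 0.0593). It was past it with DESeq2 (1.10, adjusted p = 0.0227), with all counts divided by 2 (1.10, adjusted p = 0.0436) and without the 4 libraries low on the first component (1.10, adjusted p = 3.3e-05). It was also past it without replicate 1 or 4 of control_RT or without KO8 or KO10 alone (1.21 to 1.27, adjusted p = 0.00413 to 0.0371). After cold, 0 of 32 members were called between genotypes, against 6 genes in all, or 0.0518% (0.0345% higher and 0.0173% lower). An unadjusted p under 0.05 was found for 5 members, a share near that of all genes tested, 1695 of 11594. DESeq2 called 0 members. The members farthest apart there were Slc25a30 at 1.05 ± 0.41 (adjusted p = 0.187), Slc25a25 at 0.99 ± 0.35 (adjusted p = 0.147) and Slc25a1 at -0.73 ± 0.25 (adjusted p = 0.118). Slc25a1 was called without replicate 7 of control_4C (-0.88, adjusted p = 0.0345). Comparisons that share a group share its libraries, so the genotype and cold differences of 1 gene are not separate evidence.

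**Figure D4:**
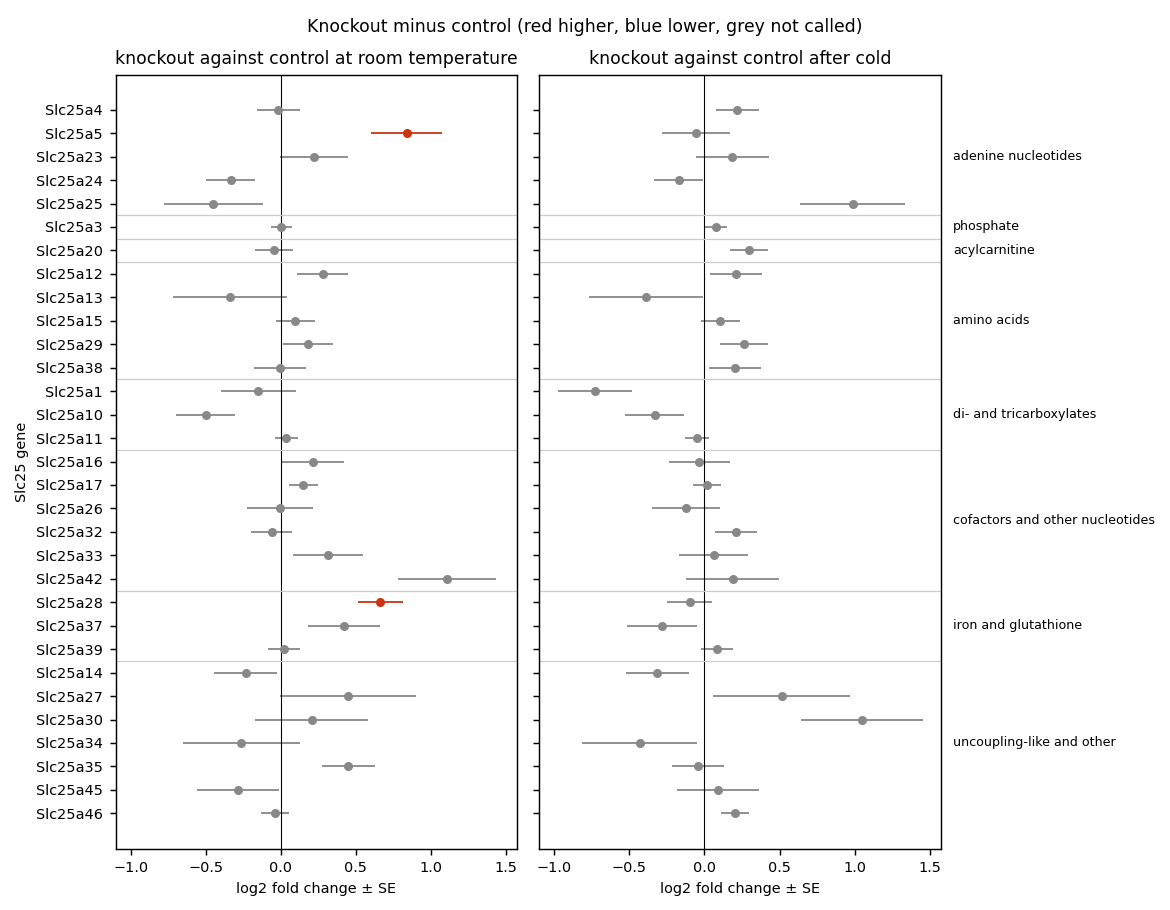
Log2 fold change of 31 tested Slc25 genes in knockout against control rats, with its SE, at room temperature (left) and after cold (right). Slc25a5 and Slc25a28 at room temperature are the members called (red); Slc25a42, the farthest right at 1.11, had an adjusted p of 0.0593.

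Levels of some of these genes followed the libraries' place on the first component, and its part in the results was not tested. In Slc25a42 the libraries low on that component were among the low ones whatever their label: replicate 2 of control_RT at 3.17, KO10 at 5.20 and KO8 at 8.60 CPM. The other 7 libraries of KO_RT, at 32.5 to 42.2 CPM, lay inside the range of control_4C, 30.8 to 52.2. Slc25a5 was also lowest among KO_RT in KO10 and KO8. Slc25a28 was low in KO8 and KO10 and high in the other 7 libraries of KO_RT. Among those 7, KO16 and KO17 scored 14.6 and 13.7, within the range of the cold libraries, 9.49 to 33.2. In every cold library Slc25a28 was lower than in these 7. Without the 4 libraries low on it, the interaction test called 3 members lower, Slc25a28 (-0.75, adjusted p = 0.00956), Slc25a42 (-0.92, adjusted p = 0.00975) and Slc25a5 (-1.08, adjusted p = 0.0405), where with all libraries it called 0. Leaving out 1 library was enough for Slc25a28, called without KO8, KO10 or replicate 4 of control_RT (-0.86 to -0.83, adjusted p = 0.0205 to 0.0375). Leaving out all 4 raised the calls over all genes in the interaction from 3 to 288. It added Slc25a30 (-1.30, adjusted p = 0.0367) and Slc25a26 (-0.66, adjusted p = 0.0490) to the members lower after cold in control rats, and Slc25a29 (0.44, adjusted p = 0.0337) to those higher in knockout rats. Since the 4 were chosen by a score from the same data, calls made without them are not separate evidence.

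**Figure D5:**
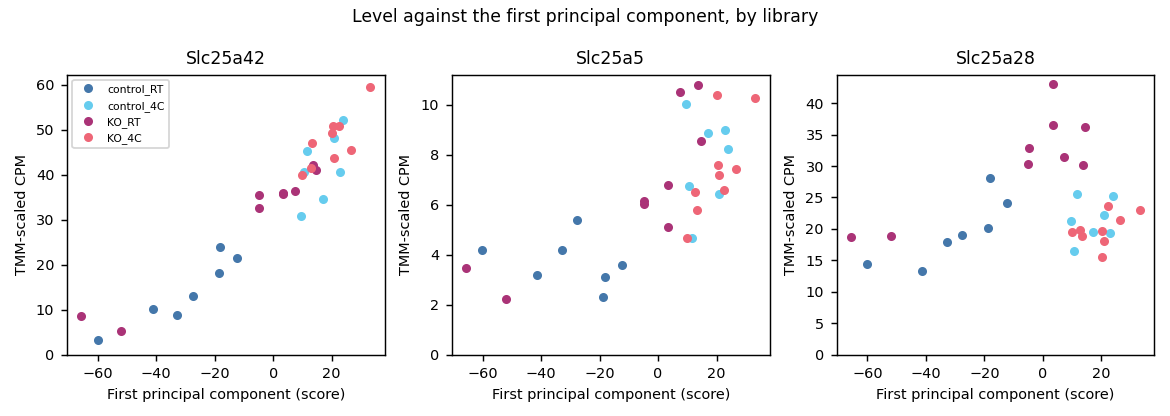
Level of Slc25a42, Slc25a5 and Slc25a28 in TMM-scaled CPM against each library's score on the first principal component of all genes tested, coloured by group. The 4 libraries lowest on the component are KO8, KO10 and replicates 2 and 3 of control_RT, and Slc25a42 is at most 10.1 CPM in each of them.

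The genes around the carriers had few calls between genotypes at room temperature. Among 10 genes of branched-chain, proline, glycine and ornithine metabolism 3 were higher in knockout rats, led by Dbt at 0.73 ± 0.15 (adjusted p = 0.0107), which was lost in a fit on the compared groups only (adjusted p = 0.0911). The other 2 calls were less stable. Oat, at 0.54 ± 0.15 (adjusted p = 0.0377), was lost in that fit (adjusted p = 0.174) and without replicate 2, 3, 5 or 6 of control_RT or KO9, KO11, KO13, KO15, KO16 or KO17 of KO_RT (adjusted p up to 0.121). Bcat2, which starts branched-chain amino acid breakdown, was at 0.64 ± 0.18 (adjusted p = 0.0440) and was lost in that fit (adjusted p = 0.135), with no filter (adjusted p = 0.0508) and without any 1 of 17 libraries (adjusted p up to 0.135). These were replicates 2, 3, 5, 6 and 7 of control_RT, KO9, KO11, KO13, KO16 and KO17, replicates 1, 2, 5 and 7 of control_4C, and replicates 2, 4 and 5 of KO_4C. Of 12 tested genes of iron, cofactor and glutathione use 1 was lower, and of 7 tested genes of mitochondrial content 1 was higher. Lists of the carnitine shuttle, ADP and phosphate handling, the aspartate and malate shuttle, citrate and pyruvate use and uncoupling relatives had 0 calls in this comparison. No marker list of another cell type had more than 1 call there; that 1 was among the 9 adipocyte markers.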

How the data were processed

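RNA-seq libraries of gastrocnemius were made from 500 ng of Trizol RNA by the QuantSeq 3′ protocol with 50 bp forward reads, per the labels. The authors deposited raw counts per gene. They also deposited normalised signal: each count divided by a size factor of its library (0.523 to 2.06). R 3.4.3, DESeq2 1.18.1 and the build Rnor_6.0 are named in the submitters' processing notes; an aligner or counter is not given in the sources used here. Only the raw counts were tested. No count was odd, so a read may have been counted in duplicate, and counts divided by 2 were an alternative.

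In R 4.3.3, edgeR 4.0.16 (limma 3.58.1) fitted 11594 of 12901 genes (filterByExpr, minimum count 10, smallest group 7) over all 32 libraries, with TMM factors and 1 mean per group, and a robust quasi-likelihood F test for 5 contrasts: cold in each genotype, genotype at each temperature, and their interaction. P-values were adjusted over all genes tested by the Benjamini-Hochberg method at 0.05, and "called" means past it. The SE is the absolute log2 fold change over the square root of F. Principal components used log2 CPM with a prior count of 2. DESeq2 1.42.0 was an alternative. P-values measure the spread between samples, which the labels do not tie to animals. No 2 libraries of a group were alike within sampling noise (smallest chi-square per degree of freedom 11.4).

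Members, partner lists and marker lists were chosen with earlier results of these data known. Values per library are given for members called in any contrast and for Slc25a3, Slc25a4, Slc25a5, Slc25a12, Slc25a13 and Slc25a20 whatever their p. Partner lists are given as counts, with up to 3 genes of smallest p named per list and contrast. Ckm and Atp5if1 are named for cold in control rats as well. Alternatives were other scalings, no filter, other fits and thresholds, and leaving out libraries. The fit was tested on simulated counts. The own values of 1 member and 1 partner gene are not reported here; counts include them.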

Additional observations from a re-analysis of the deposited data

Results flagged for a closer look

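In 15 Slc25 genes, those with values per library, each group was read for a single library far from the rest, and 7 of 60 gene and group pairs held one by Dixon's criterion at 95%; chance flags about 1 in 20. Slc25a4 was at 24025 CPM in replicate 7 of KO_4C, against 9234 to 15649 in the other libraries of that group. Replicate 7 was the highest for Slc25a4 in control_RT and control_4C as well. Slc25a3 was at 479 CPM in KO8 of KO_RT, against 599 to 674, and at 546 CPM in replicate 2 of control_RT, against 607 to 642. Slc25a32 was at 31.8 CPM in KO8 of KO_RT, against 15.4 to 21.0. Slc25a20 was at 130.1 CPM in replicate 6 of control_RT, against 93.9 to 108. Slc25a12 was at 5.58 CPM in replicate 4 of control_RT, against 3.09 to 3.86, and Slc25a13 at 2.67 CPM in replicate 2 of control_RT, against 0.546 to 1.31. KO8 and replicate 2 of control_RT are among the 4 libraries low on the first principal component.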

How the results depend on the processing

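No result reversed under any alternative. Of the 15 calls of Slc25 genes, those of Slc25a5, Slc25a17, Slc25a25, Slc25a32, Slc25a35 and Slc25a42 after cold in control rats and of Slc25a20 and Slc25a28 after cold in knockout rats held in every alternative that could be fitted (41 in control and 40 in knockout rats). At an adjusted p of 0.01, cold in control rats called 1209 genes in all, cold in knockout rats 1 Slc25 gene higher, 1 lower and 799 genes in all, and genotype at room temperature 0 Slc25 genes and 21 genes in all, with 0 in all for genotype after cold and for the interaction. Genotype at room temperature called 1 Slc25 gene (Slc25a28) higher with RLE factors, with TMM factors without the 20 most abundant genes and with no filter. A fit on the compared groups only called 0 Slc25 genes and 0 genes in all there, and 0 in all after cold. DESeq2 called 573 genes in all for genotype at room temperature, 432 after cold and 106 in the interaction, with 1 Slc25 gene lower there. Genotype after cold called 121 genes in all with RLE factors, 125 without the 20 most abundant, 3 with no filter and 81 with halved counts; the interaction called 1 in all without the 20 most abundant and 1 with no filter. Without the 4 libraries low on the first component, genotype at room temperature called 708 genes in all, and the interaction 288 in all and 3 Slc25 genes lower.

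Leaving out 1 library at a time, cold in control rats called 4 to 5 Slc25 genes higher and 2 to 3 lower, of 1806 to 2827 genes in all, and cold in knockout rats 1 to 3 higher and 3 lower, of 1331 to 1709. Genotype at room temperature called 0 to 3 higher, of 80 (without replicate 3 of control_RT) to 792 (without KO10) in all; genotype after cold 0 to 1 lower, of 0 to 556 (without replicate 7 of control_4C); the interaction 0 to 1 lower, of 0 to 226 (without KO10). Same-numbered samples of different groups did not deviate together as a rule (correlations -0.22 to 0.22, 4 of 14 pairs over 0.1, 4 of 14 samples best with their own number). Replicate 7 was best with its own number in both comparisons of groups, at 0.19 and 0.22. Whether the numbers pair samples is therefore not settled by these correlations. A replicate block, fitted without KO_RT, called 0 genes in all for genotype after cold, and 4 Slc25 genes higher and 2 lower for cold in control rats, with the call of Slc25a23 lost (-0.75, adjusted p = 0.0701). No paired analysis was possible for the comparisons with KO_RT because its columns carry no replicate number of the labels. The alternatives were applied to partner genes after their values were seen. Counts near the filter limit the members of a few CPM, where an SE of 0.35 to 0.40 on the log2 scale (Slc25a13) hides moderate differences.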
